A study of Mus musculus with 8 samples.

Results

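Metallothioneins and zinc transporters were examined in the distal lung of mice exposed to cigarette smoke (CS). The 9 genes, out of 22756 counted, were found by symbol: Mt1, Mt2, Mtf1, Slc39a1, Slc39a2, Slc39a8, Slc39a14, Slc30a1 and Slc30a4. They were chosen with earlier results of these data in view: Slc39a2 was selected on its higher counts in α7E260A:G than in α7G libraries, and the others by name, as genes of a wider zinc or cadmium response to smoke. The genotype difference of Slc39a2 is therefore given as a description, with no test. The libraries were of poly-A RNA from lavaged distal lung depleted of CD45+ cells, from adult mice that were mostly C57BL/6. All mice carried an IRES-tauGFP reporter in Chrna7, the gene of the nicotinic receptor α7. In α7G mice the receptor was otherwise normal, and in α7E260A:G mice it also carried a point mutation that limits its calcium signaling. Control mice breathed room air and CS mice received side-stream smoke on 5 days per week for 4 months. Each of the 4 groups had 1 male and 1 female library, and the number of mice in a library was not stated. A p-value therefore measures the spread between these libraries.

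Metallothioneins are small proteins rich in cysteine that bind zinc, copper and cadmium, and cigarette smoke carries cadmium. When free zinc or cadmium rises in a cell, the transcription factor MTF1 binds metal response elements near the starts of the metallothionein genes and of Slc30a1 and raises their transcription. Proteins of the ZIP (Slc39a) family bring zinc into the cytoplasm, and those of the ZnT (Slc30a) family move it out of the cell or into vesicles. ZIP8 and ZIP14, the products of Slc39a8 and Slc39a14, also carry cadmium and manganese.

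The coding sequences of both metallothioneins are shown because their short length and their likeness bear on how they were counted. They are those of the transcripts Mt1-201 and Mt2-201 in GENCODE M1 (build NCBIM37), with every cysteine codon in capitals.
Mt1: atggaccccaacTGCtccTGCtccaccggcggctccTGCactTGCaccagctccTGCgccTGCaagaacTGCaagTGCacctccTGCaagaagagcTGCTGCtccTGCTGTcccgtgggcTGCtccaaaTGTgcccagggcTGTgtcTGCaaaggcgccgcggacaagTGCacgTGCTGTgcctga
Mt2: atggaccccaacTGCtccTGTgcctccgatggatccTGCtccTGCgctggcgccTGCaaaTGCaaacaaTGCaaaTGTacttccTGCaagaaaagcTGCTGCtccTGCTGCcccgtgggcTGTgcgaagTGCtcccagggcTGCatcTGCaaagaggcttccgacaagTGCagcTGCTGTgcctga
Each is 186 nucleotides long with its stop codon. In both, 20 of the 61 amino acid codons (32.8%) were for cysteine, and all 20 stood at the same place. The sequences were identical at 148 of 186 positions (79.6%). The longest stretch that both held was 20 nucleotides.

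The 250 bases before the starts of Mt1 and Mt2 are also shown, with those of Slc39a2. These are RefSeq starts on build GRCm38.p6, and all 3 windows lie on the plus strand. Capitals mark the core of the metal response element, searched as TGCACNC and TGCGCNC on both strands.
Mt1, chr8:94178839-94179088: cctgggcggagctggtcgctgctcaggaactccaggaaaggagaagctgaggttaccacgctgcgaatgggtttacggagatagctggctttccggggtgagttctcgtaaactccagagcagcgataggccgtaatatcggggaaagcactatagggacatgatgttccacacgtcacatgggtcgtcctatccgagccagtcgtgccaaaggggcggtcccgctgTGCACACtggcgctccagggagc
Mt2, chr8:94172368-94172617: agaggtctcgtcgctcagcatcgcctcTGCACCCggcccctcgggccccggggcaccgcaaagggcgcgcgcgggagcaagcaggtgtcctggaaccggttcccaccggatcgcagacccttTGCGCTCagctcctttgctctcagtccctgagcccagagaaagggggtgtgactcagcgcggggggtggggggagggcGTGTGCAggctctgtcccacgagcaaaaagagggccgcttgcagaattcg
Slc39a2, chr14:51893360-51893609: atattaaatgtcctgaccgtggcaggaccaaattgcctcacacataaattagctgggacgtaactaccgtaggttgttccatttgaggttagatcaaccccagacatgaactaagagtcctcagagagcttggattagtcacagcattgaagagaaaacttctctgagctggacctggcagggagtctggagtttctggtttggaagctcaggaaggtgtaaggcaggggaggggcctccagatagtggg
The window of Mt2 held 3 matches and that of Mt1 held 1, and Slc39a2 held 0 matches in these letters. Of the other members, Slc30a4 held 2 matches and Slc30a1 held 1. Slc39a8 held 1 match before one of its starts and 0 before the other, and Mtf1 and Slc39a1 held 0. No matches overlapped. Of 32851 such windows over the genome, 21.4% held at least 1 match and 1.26% held at least 3. In the same windows extended by the first 50 bases of the gene, Mt2 held 4 matches, Mt1 and Slc30a4 held 3, Slc30a1 held 2 and Slc39a2 held 0, and of all 32851 extended windows 25.7% held at least 1 and 1.97% at least 3. A match is only a run of letters, and its part in the levels of these genes was not tested.

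The libraries held 8020726 to 10944100 counted reads each, so a floor of 3 counts was 0.274 to 0.374 RPM (a gene's count divided by the library's total and scaled to 1000000 reads). That floor covers counting error only. The cells were enriched for epithelium, and transcripts of further cell types were measured. Epcam, an epithelial surface protein, had 131 to 212 RPM in α7G and 78.5 to 92.3 RPM in α7E260A:G, while Ptprc, which encodes CD45, ranged from 771 to 1935 RPM over all libraries. Every α7E260A:G library had less Epcam than every α7G library, an order seen for 772 of the 14140 genes tested with the markers (5.46%). Of 5 general epithelial markers, Epcam among them, 1 had a positive log2 fold-change in α7E260A:G over α7G. For these 5, 0 were called by edgeR, 3 had an unadjusted p under 0.05 and DESeq2 called 1. Their sums overlapped, with 1213 to 1886 RPM in α7G and 1002 to 1521 RPM in α7E260A:G. Of 14 alveolar macrophage markers measured, all 14 had a positive log2 fold-change in α7E260A:G over α7G, with 0 called by edgeR, 10 at an unadjusted p under 0.05 and 10 called by DESeq2. Over the 14140 genes tested with the markers, 11.2% had an unadjusted p under 0.05 in this comparison and DESeq2 called 3.64%. Each of the 14 had counts. Their summed level was 10803 to 18379 RPM in the α7G libraries and 25127 to 42258 RPM in the α7E260A:G libraries. Of these markers, the paper listed only Chi3l3 among its most abundant transcripts, so the sum leans most on that gene. All 9 markers of alveolar type II cells, which make surfactant, had a negative log2 fold-change in α7E260A:G over α7G, with 0 called by edgeR, 8 at an unadjusted p under 0.05 and 3 called by DESeq2. Their sum was 20106 to 30674 RPM in α7G and 4767 to 14836 RPM in α7E260A:G. Neither the macrophage sum nor the type II sum overlapped between the genotypes. In such bulk libraries, fewer cells of a type and less RNA per cell cannot be told apart. The part of these marker levels in the results that follow was not tested.

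The level of each gene was compared per kb of coding sequence (CDS), as RPM per kb. Mt1 was highest, with 663 ± 313 RPM per kb (SD, n = 8 libraries), followed by Mt2 with 540 ± 275. These levels lay within each other's spread. The level of Mt1 rests on the union of its annotated CDS, 396 bases without a stop codon, and was 1436 RPM per kb on the 183 bases of Mt1-201. Slc39a2 came next with 82.4 ± 66.6 and then Slc39a1 with 43.9 ± 3.63, a pair whose ranges overlapped, while every library had less Slc39a2 than the lowest Mt2 per kb. Slc39a8 had 15.4 ± 7.78 RPM per kb and Mtf1 had 10.6 ± 3.77. Slc39a14 had 8.70 ± 3.97, Slc30a1 had 7.85 ± 2.11 and Slc30a4 had 5.15 ± 1.29. Among these last 5, the ranges of neighbours overlapped, and all lay below that of Slc39a1. The ratio of the highest to the lowest library was 7.13 for Slc39a2, 4.56 for Slc39a8, 3.90 for Mt1 and for Mt2, and 1.27 for Slc39a1.

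**Figure D1:**
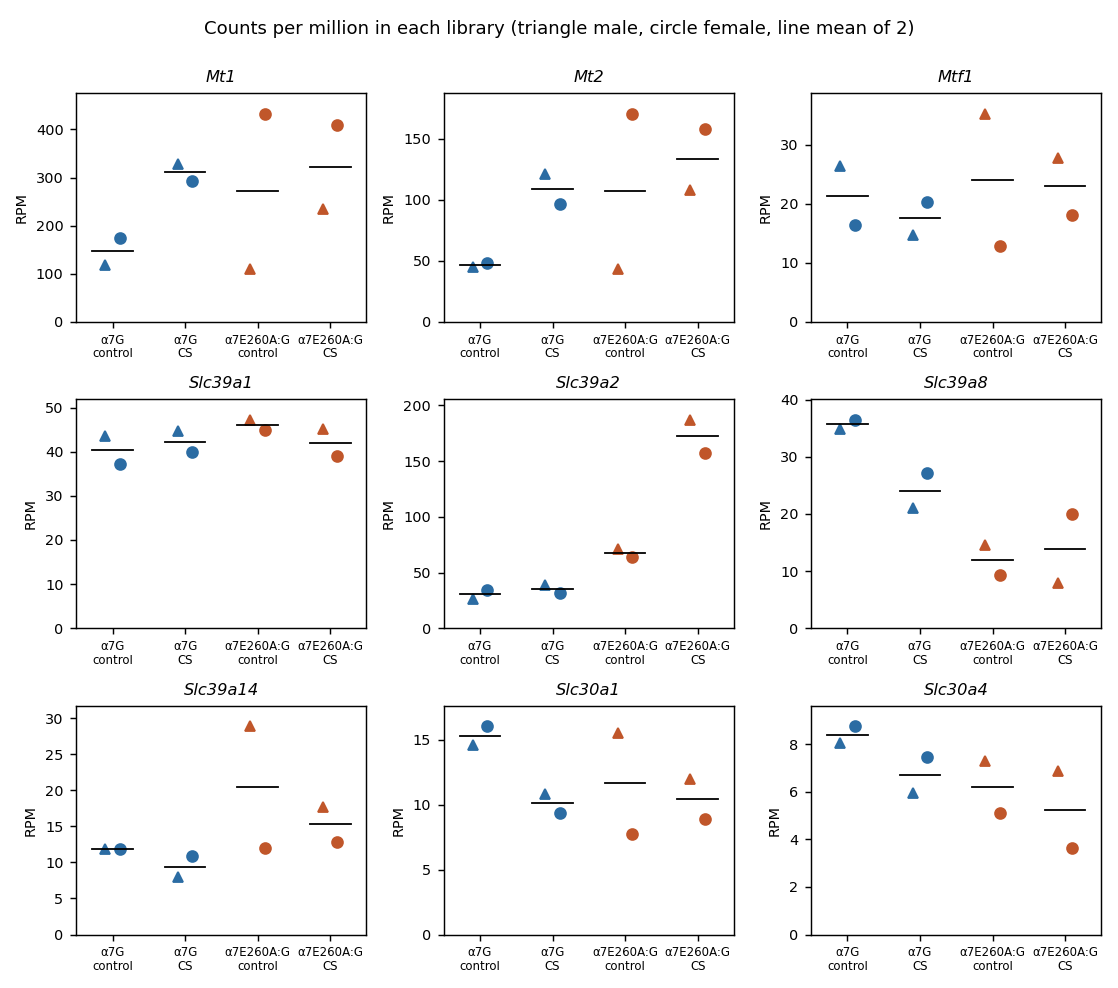
RPM (vertical axis from 0) of the 9 genes in each of 8 libraries, by group (horizontal axis); triangles are male and circles female libraries, and lines are the means of 2. Slc39a2 was highest in the 2 α7E260A:G CS libraries, Slc39a8 was lower in every α7E260A:G than in every α7G library, and Mt1 and Mt2 were far apart between the sexes in α7E260A:G controls.

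Slc39a2 encodes ZIP2, an importer of zinc at the cell surface, and lies on chromosome 14 (52512564-52516420, plus strand, NCBIM37; ENSMUSG00000072572.2). In α7G it had 26.2 RPM in the male and 34.5 RPM in the female control, and 38.5 RPM in the male and 32.0 RPM in the female CS library. The α7E260A:G mice had 70.9 RPM in the male and 64.2 RPM in the female control, and 187 RPM in the male and 158 RPM in the female CS library. All 4 α7E260A:G libraries were above all 4 α7G libraries, which is how the gene was chosen. As a description, α7E260A:G over α7G was 2.70 in male and 1.86 in female controls, and 4.85 in male and 4.92 in female CS libraries. Among all 7190 transcripts with a mean count of at least 200, 215 (2.99%) were higher in every α7E260A:G library.

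The response of Slc39a2 to CS was a different contrast in the same libraries, and it was not independent of how the gene was chosen. A gene whose genotypes separate tends to have a small spread within groups, which lowers its p for CS as well. The ranks, shares and p-values of its CS response therefore describe a selected gene. In α7E260A:G Slc39a2 went from 67.6 ± 4.72 to 172 ± 20.8 RPM (SD, n = 2), with CS over control of 2.64 in males and 2.45 in females. In both sexes the ratio exceeded 2, which held for 19 of 7190 transcripts (0.264%). The log2 fold-change was 1.26 (standard error 0.24), and the unadjusted p of 0.00111 was the second lowest of the 7190, but after Benjamini-Hochberg adjustment edgeR's quasi-likelihood test gave 1.00. That test called 0 of 7190 transcripts for CS in α7E260A:G, with 122 (1.7%) at an unadjusted p under 0.05. DESeq2 called 11 (0.153%), Slc39a2 among them (adjusted p = 0.0118), and with the 14140 genes of a wider filter (edgeR's filterByExpr) it also did so (adjusted p = 0.0247, among 0.24% of genes). Over 16 alternative settings its adjusted p ran from 0.0118 to 1.00, and its log2 fold-change from 1.18 to 1.38. The alveolar macrophage sum in the same libraries was 25127 RPM in the control and 31187 RPM in the CS male, and 39486 RPM in the control and 42258 RPM in the CS female.

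In α7G the same comparison gave 30.4 ± 5.84 RPM in controls and 35.3 ± 4.58 RPM in CS libraries. The male ratio was 1.47 and the female ratio 0.929, so the sexes lay on either side of no change. The log2 fold-change was 0.33 (standard error 0.24, edgeR adjusted p = 0.596). The difference between the genotypes in their CS response was 0.92 on the log2 scale (standard error 0.34), with an unadjusted p of 0.0281 and an adjusted p of 0.997 in edgeR. For this interaction 0 of 7190 transcripts passed in edgeR, 102 (1.42%) had an unadjusted p under 0.05 and DESeq2 called 3 (0.0417%), without Slc39a2. A difference in the CS response of Slc39a2 between the genotypes was thus not established after adjustment. Over both genotypes the CS difference was 0.79 (standard error 0.17, adjusted p = 0.630 in edgeR and 0.0120 in DESeq2, which called 0.542% of transcripts). With DESeq2 on the 14140 genes of the wider filter this call was not made (0.79, adjusted p = 0.0568). In edgeR 0 transcripts were called and 7.58% had an unadjusted p under 0.05. Over 15 alternatives that adjusted p ran from 0.0120 to 1.00.

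**Figure D2:**
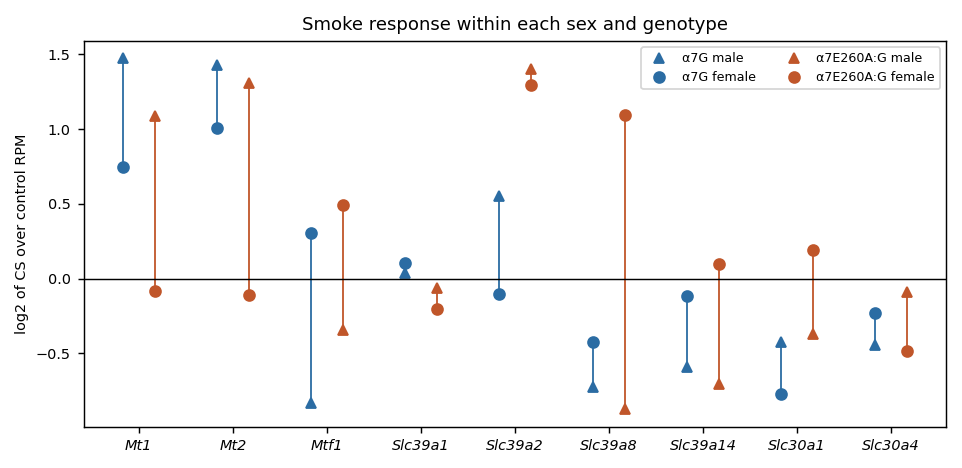
Log2 of the CS over control RPM ratio (vertical axis) for each gene (horizontal axis) in α7G (blue) and α7E260A:G (orange); triangles are the male and circles the female pair of libraries, joined by a line. Both α7E260A:G pairs of Slc39a2 lay above 1 on the log2 scale, while Mt1 and Mt2 lay above 0 in 3 of 4 pairs and below it in the α7E260A:G females.

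The transcripts whose pattern was most like that of Slc39a2 were found by Pearson's r of log2(RPM + 0.5) over the 8 libraries, among 7189 transcripts. The 5 highest were Mfsd11 (r = 0.997), Gpnmb (0.992), Dirc2 (0.992), Lamp1 (0.987) and B3gnt7 (0.976). Gpnmb encodes a transmembrane glycoprotein found in macrophages and other cells. Its group means were 220.5 and 274 RPM in α7G control and CS, and 521 and 1325 RPM in α7E260A:G control and CS. Lamp1, a glycoprotein of the lysosomal membrane, had group means of 755 and 831 RPM in α7G and 963 and 1393 RPM in α7E260A:G. Mfsd11 kept nearly the same order over a narrow range, with 31.0 to 33.7 RPM in α7G and 39.1 to 51.7 RPM in α7E260A:G. For all 5, as for Slc39a2, no library of one genotype overlapped those of the other, so the points of each r share that separation. With rank correlation, 2 of these 5 stayed among the 5 highest.

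**Figure D3:**
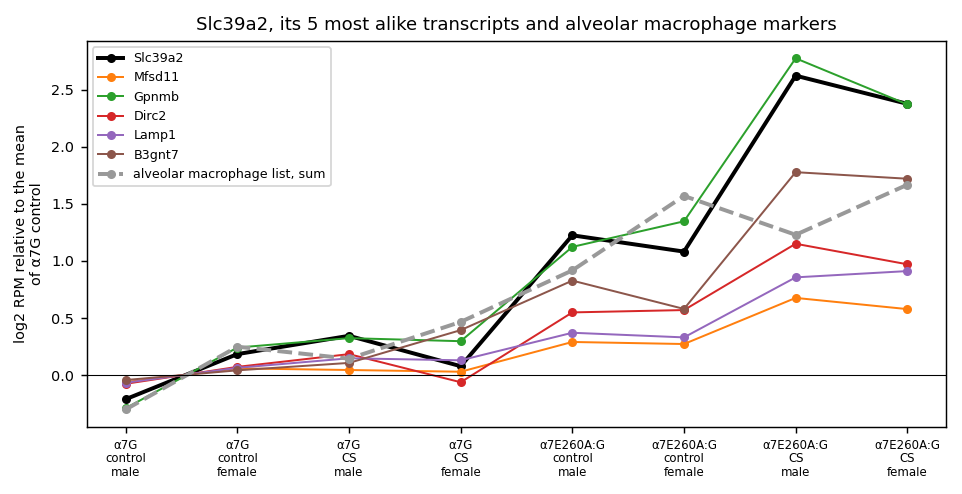
Log2 RPM relative to the mean of the α7G controls (vertical axis) in each library (horizontal axis) for Slc39a2 (black), its 5 most alike transcripts (thin lines) and the sum of 14 alveolar macrophage markers (grey, dashed); lines only join the points of a gene. Slc39a2 and Gpnmb were highest in α7E260A:G CS, and the marker sum differed between α7E260A:G control and CS by less than Slc39a2. The sum leans most on Chi3l3, and the part of macrophage transcripts in the level of Slc39a2 was not tested.

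Of 7 genes with starts within 100 kb of that of Slc39a2, 4 had a mean count of at least 10. Ear6, an eosinophil-associated ribonuclease, had 2.89 to 5.98 RPM in α7G and 6.34 to 81.3 RPM in α7E260A:G. Every α7E260A:G library was thus higher, an order seen for 329 of 14140 genes (2.33%). The log2 fold-change of Ear6 was 3.06 (standard error 0.50, edgeR adjusted p = 0.0997). Ear genes are near-identical copies whose reads may be shared, so this value is uncertain. For Mettl17, whose annotated span overlaps the start of Slc39a2, the log2 difference between genotypes was 0.03 (standard error 0.16, edgeR adjusted p = 0.977). For Ndrg2 it was -0.07 (adjusted p = 0.970) and for Arhgef40 0.65 (adjusted p = 0.583).

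Mt1 and Mt2 lie beside each other on chromosome 8 (96702989-96704225 and 96696518-96697467, plus strand, NCBIM37; ENSMUSG00000031765.6 and ENSMUSG00000031762.6). Mt1 had 118 RPM in the male and 175 RPM in the female α7G control, and 329 RPM in the male and 293 RPM in the female α7G CS library. With α7E260A:G, Mt1 had 111 RPM in the male control and 236 RPM in the male CS library, against 432 RPM in the female control and 408 RPM in the female CS library. Both CS libraries of α7G were above both controls, whereas the α7E260A:G groups overlapped. The share of all genes with that order in α7G was not counted. The female α7E260A:G control held the highest Mt1 level of all 8 libraries, and its male counterpart the lowest. Mt2 followed nearly the same order, with 45.0 RPM in the male and 47.9 RPM in the female α7G control and 121 RPM in the male and 96.3 RPM in the female α7G CS library. In α7E260A:G, Mt2 had 43.7 RPM in the male and 170.4 RPM in the female control, and 108 RPM in the male and 158 RPM in the female CS library. Together the genes took 0.0155% of the counted reads in the male α7E260A:G control (95% Wilson interval 0.0146% to 0.0163%) and 0.0603% in the female (0.0588% to 0.0618%), intervals that cover counting error only.

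Across libraries the log2 levels of Mt1 and Mt2 correlated with a Pearson r of 0.964 (exact permutation p = 0.000248, adjusted 0.000992 over 4 relations) and a Spearman rho of 0.976 (exact permutation p = 0.000397, adjusted 0.00159), n = 8. Without the 2 libraries farthest from the median of Mt1, r was 0.942. The permutations for all 4 relations shuffled the 8 libraries freely, so their p-values do not allow for group or sex. Within a sex there were only 4 libraries, too few for a separate value. The Mt1 count was 2.17 to 3.64 times the Mt2 count. The 5 transcripts most like the mean of Mt1 and Mt2, by the same measure as for Slc39a2, were Txn1 (thioredoxin, r = 0.989), Tmem14c (0.984), Htatip2 (0.983), Prdx5 (a peroxiredoxin, 0.982) and Atp6v0e (a subunit of the vacuolar proton pump, 0.982). Their CDS were short, between 243 and 726 bases, and 211 of 7188 transcripts had an r over 0.9. With rank correlation, 0 of the 5 were among the 5 highest, since 10 transcripts had a rho of 1.

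CS over control in α7G was 2.78 in males and 1.68 in females for Mt1, and 2.69 in males and 2.01 in females for Mt2. Mt2, with a female ratio barely over the cutoff, was thus among 24 of 7190 transcripts (0.334%) above 2 in both sexes, and Mt1 was not. By the unadjusted p of edgeR for this comparison, Mt2 ranked 941 of 7190. In edgeR the log2 fold-change was 1.20 for Mt1 (standard error 0.70, adjusted p = 0.589) and 1.35 for Mt2 (standard error 0.67, adjusted p = 0.589). The test called 0 of 7190 transcripts for CS in α7G, with 480 (6.68%) at an unadjusted p under 0.05, and DESeq2 called 26 (0.362%), neither gene among them. A fit of only the 4 α7G libraries called both, with adjusted p of 0.0182 for Mt1 and 0.0147 for Mt2, but that fit called 16.0% of all transcripts. In α7E260A:G the log2 fold-changes were 0.08 (standard error 0.69) for Mt1 and 0.14 (standard error 0.65) for Mt2, with edgeR adjusted p of 1.00 for both. The difference between the genotypes was -1.12 (standard error 0.98) for Mt1 and -1.21 (standard error 0.93) for Mt2 (edgeR adjusted p = 0.997 for both). With each library left out in turn, the CS fold-change of Mt2 in α7E260A:G ran from -0.57, without the male control, to 1.73, without the female control. It was also negative without the female CS library (-0.30), and the sign of Mt1 turned in the same 2 settings.

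The libraries differed in how counts depended on CDS length, and the CDS of the metallothioneins are the shortest of the 9. Each library's log2 deviation was regressed on log2 CDS length, which gave a slope of 0.41 for the male α7E260A:G control and of -0.24 for the female. For α7G controls the slope was 0.23 (male) and 0.06 (female), against -0.24 and -0.20 for the CS libraries. Mt1 correlated with this slope with a Pearson r of -0.913 (exact permutation p = 0.00253, adjusted 0.00506) and a Spearman rho of -0.857 (exact permutation p = 0.0107, adjusted 0.0143), n = 8. Without the 2 libraries farthest from the median slope, r was -0.785. For Mt2, r was -0.797 (exact permutation p = 0.0300, adjusted 0.0300) and rho -0.786 (exact permutation p = 0.0279, adjusted 0.0279), and without those 2 libraries r was -0.556. The slope was fitted on transcripts that included Mt1 and Mt2, and it describes how short and long ones differ. These p-values therefore do not single out the 2 genes. The share of all transcripts with as strong an r was not counted.

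**Figure D4:**
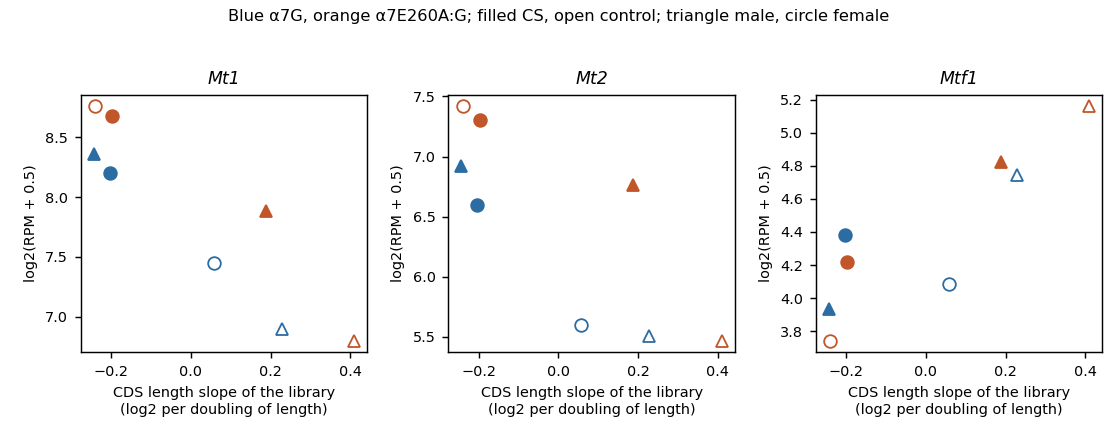
Log2(RPM + 0.5) of Mt1, Mt2 and Mtf1 (vertical axes) against the slope of each library's log2 deviation on CDS length (horizontal axes, log2 per doubling), for 8 libraries. Mt1 and Mt2 were high where the slope was negative, that is where short transcripts had more counts, and Mtf1 was low there.

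When each library's dependence on CDS length was removed by an offset, the CS fold-change in α7G became 0.51 for Mt1 (standard error 0.29, edgeR adjusted p = 0.643) and 0.21 for Mt2 (standard error 0.20, adjusted p = 0.749). In α7E260A:G it became 0.28 for Mt1 (standard error 0.29) and 0.49 for Mt2 (standard error 0.20, adjusted p = 1.00 for both). The offset took 396 bases as the CDS of Mt1. With the 183 bases of Mt1-201 in their place, a setting added after seeing the data, the CS fold-change of Mt1 was 0.11 in α7G (standard error 0.16, edgeR adjusted p = 0.838) and 0.38 in α7E260A:G (standard error 0.16, adjusted p = 1.00), and the difference between the genotypes in that response turned to 0.27. The offset turned the sign of the genotype difference in the Mt2 response, from -1.21 to 0.27. For Slc39a2 it left the CS fold-change in α7E260A:G at 1.20 (standard error 0.20, adjusted p = 0.285). The metallothioneins were thus higher with CS in both α7G pairs as RPM, and the difference was smaller with the offset, and it was called with neither when all 8 libraries were fitted.

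Between the genotypes over both exposures, the log2 fold-change was 0.61 for Mt1 (standard error 0.49, edgeR adjusted p = 0.758) and 0.88 for Mt2 (standard error 0.47, adjusted p = 0.547). In this comparison edgeR called 6 of 7190 transcripts (0.0834%). With the length offset Mt2 was called, with 0.71 (standard error 0.14, edgeR adjusted p = 0.0237), among 476 transcripts (6.62%). Over the 15 alternatives for Mt2 its adjusted p ran from 0.0147 to 0.983, and 3 of them called it. The call was also made without the male α7E260A:G control, with 1.22 (edgeR adjusted p = 0.0453), where 121 of 7190 transcripts (1.68%) were called. With the CDS of Mt1-201 in the offset, the difference for Mt1 was 0.42 (standard error 0.11, edgeR adjusted p = 0.0626), and it was called when the sexes were also a replicate block (0.42, edgeR adjusted p = 0.0458), a fit that called 675 of 7190 transcripts. Without the female α7E260A:G control the values were 0.08 for Mt2 and -0.19 for Mt1. The RPM of both genes overlapped between the genotypes.

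Mtf1 encodes the zinc-sensing transcription factor that drives the metallothionein genes (chromosome 4, 124479348-124527044, plus strand, NCBIM37). Its mean count was 187, under the minimum of 200, and like Slc39a8, Slc39a14, Slc30a1 and Slc30a4 it was tested among the 14140 genes kept by filterByExpr. It had 26.3 and 16.4 RPM in the male and female α7G control, 14.8 and 20.3 RPM in α7G CS, 35.2 and 12.9 RPM in α7E260A:G control, and 27.8 and 18.1 RPM in α7E260A:G CS. In males it was lower with CS and in females higher, in both genotypes. Its log2 fold-change was 0.32 between genotypes (standard error 0.30, edgeR adjusted p = 0.799) and -0.11 with CS (standard error 0.30, adjusted p = 0.913). It correlated with the CDS length slope with a Pearson r of 0.877 (exact permutation p = 0.00615, adjusted 0.00820) and a Spearman rho of 0.857 (exact permutation p = 0.0107, adjusted 0.0143), n = 8, opposite in sign to the metallothioneins. Without the 2 libraries farthest on that slope r was 0.700. As for the metallothioneins, the share of transcripts with as strong an r was not counted.

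Slc39a8 encodes ZIP8 (chromosome 3, 135488243-135551536, plus strand, NCBIM37), which carries zinc, manganese and cadmium into cells. It had 34.9 and 36.4 RPM in the male and female α7G control and 21.1 and 27.1 RPM in α7G CS. The α7E260A:G libraries had 14.6 and 9.32 RPM in the male and female control, and 7.98 and 19.9 RPM in the CS libraries. Every α7E260A:G library was thus below every α7G library, with means of 13.0 ± 5.45 and 29.9 ± 7.14 RPM (SD, n = 4). That order was seen for 772 of 14140 genes (5.46%). The log2 fold-change was -1.09 (standard error 0.33), with an unadjusted p of 0.0115, under the 0.05 reached by 11.2% of genes, and an adjusted p of 0.245 in edgeR, which called 0.0919% of genes. DESeq2 called 3.64% and gave Slc39a8 an adjusted p of 0.0709, and over 13 alternatives the adjusted p ran from 0.0545 to 0.652, so the difference was not called in any of them. The alveolar type II markers were lower in the same libraries. With CS its log2 fold-change was -0.43 in α7G (standard error 0.46, edgeR adjusted p = 0.738) and 0.24 in α7E260A:G (standard error 0.47, adjusted p = 1.00).

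Slc39a14 encodes ZIP14, an importer of zinc, iron and manganese whose transcription rises with IL-6 (chromosome 14, 70703274-70751232, minus strand, NCBIM37). It had 11.9 and 11.8 RPM in the male and female α7G control and 7.91 and 10.9 RPM in α7G CS. The α7E260A:G libraries had 28.9 and 12.0 RPM in the male and female control, and 17.7 and 12.8 RPM in the CS libraries. The α7E260A:G libraries lay above the α7G libraries, an order seen for 329 of 14140 genes (2.33%), but the lowest of the former (12.0 RPM) and the highest of the latter (11.9 RPM) were next to each other. The log2 fold-change was 0.78 (standard error 0.27, edgeR adjusted p = 0.298). It was called without the female α7E260A:G control, with 0.97 (adjusted p = 0.0431), a setting in which 639 of 14140 genes (4.52%) were called, and over 13 alternatives the adjusted p ran from 0.0431 to 0.794. With CS it was -0.20 in α7G (standard error 0.38, edgeR adjusted p = 0.861) and -0.43 in α7E260A:G (standard error 0.37, adjusted p = 1.00).

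Slc39a1 encodes ZIP1, an importer present in most cells (chromosome 3, 90052094-90057534, plus strand, NCBIM37). It varied least, from 37.1 RPM in the female α7G control to 47.2 RPM in the male α7E260A:G control. Its log2 fold-change was 0.16 between genotypes (standard error 0.15, edgeR adjusted p = 0.810) and -0.02 with CS (standard error 0.15, adjusted p = 0.967). CS over control was 1.02 and 1.07 in the male and female pairs of α7G, and 0.957 and 0.868 in those of α7E260A:G. This difference between genotypes was -0.42 on the log2 scale (standard error 0.30, edgeR adjusted p = 0.997).

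The exporters had the lowest levels. Slc30a1 encodes ZnT1, which moves zinc out of the cell and is a target of MTF1 (chromosome 1, 193730646-193737126, plus strand, NCBIM37). It had 14.6 and 16.0 RPM in the male and female α7G control and 10.8 and 9.36 RPM in α7G CS. In α7E260A:G it had 15.5 and 7.77 RPM in the male and female control, and 12.0 and 8.85 RPM in the CS libraries. Both α7G CS libraries were below both α7G controls, an order of 2 against 2 libraries whose share over all genes was not counted. The log2 fold-change there was -0.47 (standard error 0.33, edgeR adjusted p = 0.651), opposite in sign to those of Mt1 and Mt2. In α7E260A:G it was -0.19 (standard error 0.33, adjusted p = 1.00) and the groups overlapped. Slc30a4 encodes ZnT4, a transporter of intracellular vesicles (chromosome 2, 122506969-122528399, minus strand, NCBIM37). It ranged from 3.65 to 8.75 RPM. Its log2 fold-change was -0.34 between genotypes (standard error 0.27, edgeR adjusted p = 0.746) and -0.25 with CS (standard error 0.27, adjusted p = 0.772). Over both genotypes edgeR called 0 of 14140 genes for CS, with 1067 (7.55%) at an unadjusted p under 0.05, and DESeq2 called 63 (0.446%), with 0 of the 9 members among them.

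Between the sexes, with the 4 groups in the model, Mt1 was higher in females by 0.95 on the log2 scale (standard error 0.39, unadjusted p = 0.0457, edgeR adjusted p = 0.228) and Mt2 by 0.72 (standard error 0.42, adjusted p = 0.293). An unadjusted p under 0.05 was reached by 21.9% of the 7190 transcripts in this comparison and an adjusted one by 0.0278%. With the length offset the values were 0.37 for Mt1 and -0.16 for Mt2, so the sign of Mt2 turned. For Slc39a2 it was 0.11 (standard error 0.16, adjusted p = 0.645).

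Other genes of metal handling were read from lists. Of 10 further ZIP importers, 9 were tested, and 0 were called in edgeR in any of the 6 comparisons. Between genotypes 8 of 9 had a positive log2 fold-change, with a median of 0.33, beside 53.4% positive and a median of 0.03 over all 14140 genes. The highest per kb, Slc39a7 (ZIP7, of the secretory pathway), had a difference of 0.13 (standard error 0.15, edgeR adjusted p = 0.852), and the next, Slc39a4 (ZIP4), of -0.16 (standard error 0.24, adjusted p = 0.895). Slc39a10 and Slc39a12 had an unadjusted p under 0.05 and are named after their values were seen. Slc39a12 had 2.33 to 3.61 RPM in α7G and 4.87 to 8.77 RPM in α7E260A:G, with a difference of 1.39 (standard error 0.28, adjusted p = 0.117 in edgeR and 0.00435 in DESeq2). Every α7E260A:G library was thus higher, an order seen for 329 of 14140 genes (2.33%). DESeq2 called no other gene of this list between genotypes. Over both genotypes with CS the median of the list was 0.05, and 5 of 9 were positive. Slc39a4 had 0.71 in that comparison (standard error 0.24, unadjusted p = 0.0176, edgeR adjusted p = 0.653), and 0.90 with CS in α7E260A:G (standard error 0.34, unadjusted p = 0.0280, adjusted p = 1.00).

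Of 8 further ZnT exporters, 4 were tested, with 0 called in edgeR or DESeq2 and 0 at an unadjusted p under 0.05. Their median was 0.06 between genotypes and -0.09 with CS. Slc30a5, a transporter of the secretory pathway, had a difference of -0.09 between genotypes (standard error 0.15, edgeR adjusted p = 0.905), and Slc30a7 of 0.22 (standard error 0.18, adjusted p = 0.742). Slc30a8 and Slc30a10 had 0 counts in all 8 libraries. Of the other metallothioneins, Mt4 had 0 counts throughout. Mt3 had 0 to 26 counts, with 26 in the male α7G CS and in the female α7E260A:G CS library and 8 or fewer in the others.

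**Figure D5:**
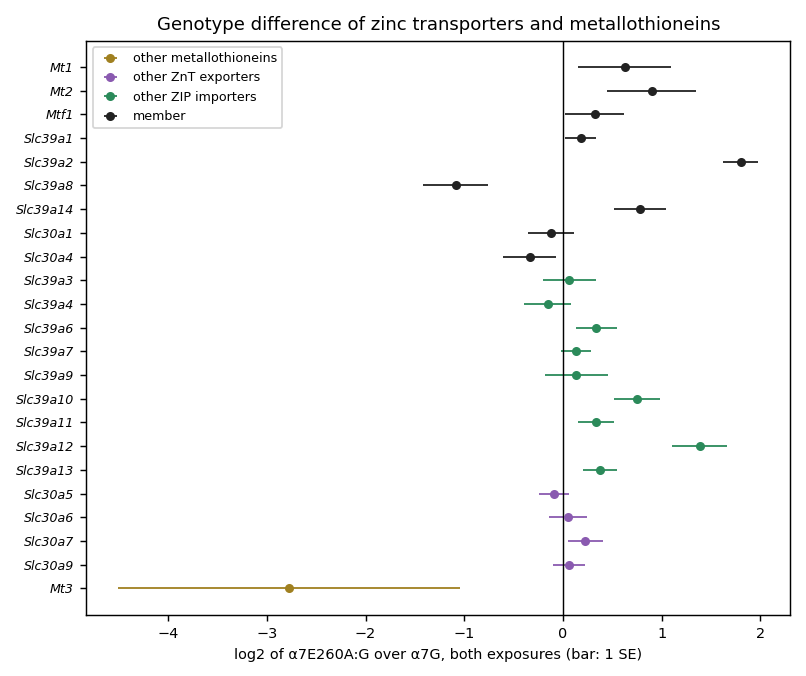
Log2 fold-change of α7E260A:G over α7G over both exposures (horizontal axis; bars are 1 standard error of edgeR's fit on 14140 genes) for the 9 members (black), other ZIP importers (green), other ZnT exporters (purple) and Mt3 (ochre). Slc39a2 lay at 1.80 and Slc39a8 at -1.09, the 4 tested ZnT exporters lay near 0, and Mt3, with few counts, had a wide bar.

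Of 9 transcripts known to respond to cadmium and oxidants, 7 had a positive log2 fold-change with CS over both genotypes, with a median of 0.25 beside 0.01 over all genes, and 0 were called in edgeR. Nqo1, Gclm and Srxn1 had an unadjusted p under 0.05 and are named after their values were seen. Nqo1, a quinone reductase and a target of NRF2, had 7.10 and 8.01 RPM in the male and female α7G control and 63.5 and 14.1 RPM in α7G CS. In α7E260A:G it had 5.60 and 3.84 RPM in the male and female control, and 36.0 and 32.0 RPM in the CS libraries. All CS libraries were above all controls, an order seen for 1.84% of genes, and the log2 fold-change was 2.64 (standard error 0.44, adjusted p = 0.555 in edgeR and 4.39e-06 in DESeq2, which called 0.446% of genes). Gclm, of glutathione synthesis, had 0.61 (standard error 0.20, edgeR adjusted p = 0.653), and Srxn1, sulfiredoxin, had 0.85 (standard error 0.36, edgeR adjusted p = 0.653). Hmox1, heme oxygenase, was the highest of the list per kb and had 0.10 with CS (standard error 0.16, edgeR adjusted p = 0.840). Between genotypes Hmox1 had 0.70 (standard error 0.16, adjusted p = 0.152 in edgeR and 0.0141 in DESeq2).

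Metallothionein genes also respond to glucocorticoids and to IL-6. The part of either in the levels of Mt1 and Mt2 was not tested. Of 6 glucocorticoid-responsive transcripts, 2 were positive with CS over both genotypes, with a median of -0.21 and 0 at an unadjusted p under 0.05. In α7G, 0 of the 6 were positive and the median was -0.43, beside 49.9% positive and a median of -0.0013 over all 14140 genes. In α7E260A:G, 4 of the 6 were positive with a median of 0.07 and 1 had an unadjusted p under 0.05, beside 47.9% positive and a median of -0.02 over all genes. The highest per kb, Tsc22d3, had -0.06 in α7G (standard error 0.27, edgeR adjusted p = 0.949), and Sgk1 had -0.03 in α7G (standard error 0.28, adjusted p = 0.974). In α7E260A:G, Sgk1 had 416 and 523 RPM in the male and female control, and 901 and 777 RPM in the CS libraries. Tsc22d3 had 167 and 195 RPM in those controls, and 218 and 196 RPM in the CS libraries. Between genotypes Sgk1 had 0.94 (standard error 0.20, adjusted p = 0.122 in edgeR and 0.00205 in DESeq2). Of 5 acute phase and IL-6 transcripts tested, 4 were positive with CS, with a median of 0.40 and 0 called by edgeR or DESeq2. Hp, haptoglobin, had 0.41 (standard error 0.28, edgeR adjusted p = 0.710) and Lcn2, lipocalin 2, had 0.40 (standard error 0.43, adjusted p = 0.780). Of 8 transporters and chaperones of copper, iron and manganese, 4 were positive with CS, with a median of -0.07. Atox1, a copper chaperone, had 0.29 with CS (standard error 0.43, edgeR adjusted p = 0.822), and Slc31a2, a copper transporter, had 0.80 between genotypes (standard error 0.20, adjusted p = 0.174 in edgeR and 0.0385 in DESeq2). Over all 7 lists, edgeR called 0 of 42 tested genes in each of the 6 comparisons. Between genotypes 7 of the 42 had an unadjusted p under 0.05 and DESeq2 called 4, beside 11.2% and 3.64% of all 14140 genes. For CS over both genotypes 5 had an unadjusted p under 0.05 and DESeq2 called 1, beside 7.55% and 0.446% of all genes. For CS in α7G these were 2 and 1, beside 6.68% and 0.127%, and for CS in α7E260A:G 6 and 1, beside 3.08% and 0.24%. For the interaction both were 0, beside 2.19% and 0.0495%, and between the sexes they were 5 and 0, beside 15.8% and 0.368%.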

How the data were processed

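The authors sequenced 8 stranded poly-A libraries (TruSeq), aligned reads with STAR to mm9 (NCBIM37) and counted those on coding sequence with htseq-count and GENCODE M1. The deposited values are raw counts for 22756 genes per library, all of which matched GENCODE M1 by identifier and symbol. The 9 members and all lists were chosen with earlier results of these data known. RPM were counts scaled to 1000000 per library (totals 8020726 to 10944100). The tests were edgeR's quasi-likelihood tests (version 4.0.16, with limma 3.58.1, under R 4.3.3; glmQLFit, glmQLFTest, TMM, Benjamini-Hochberg at 0.05, 4 groups, no term for sex), on the 7190 transcripts with a mean count of at least 200 that were not immunoglobulin, histocompatibility, Gm or ribosome subunit genes by name. Only 4 members passed this filter (Mt1, Mt2, Slc39a1, Slc39a2), and the other 5, with the lists, marker lists and neighbours, were tested on the 14140 genes of filterByExpr. A standard error is the fold-change (log2) divided by the root of F.

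Alternatives were DESeq2 1.42.0, library size scaling, filterByExpr, all 17542 genes with counts, an offset for CDS length (lowess on log2 CDS length), sex as a replicate block, the block with the offset, the 4 libraries of a genotype, and each library left out. Their combinations with filterByExpr, and the offset with the CDS of Mt1-201 for Mt1, were added after seeing the data. The edgeR tests, apart from female against male, were also run on simulated counts, after the fit to the data and with its common dispersion. Named were all members, called genes and the 2 highest per kb of each list, the 5 most alike transcripts, and neighbours of Slc39a2. Promoter windows were from RefSeq (GRCm38.p6), matched by symbol for 8 of 9 members; Slc39a14 was not matched. Other steps used Python 3.11.15, numpy 2.4.6, pandas 2.3.3, scipy 1.17.1 and matplotlib 3.10.9. Reads were not realigned. Each group has 2 libraries, so an SD is of 2 values, and depth limits Slc30a4 and Mt3 most.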

Additional observations from a re-analysis of the deposited data

Results flagged for a closer look

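In 4 members the genotype ratio of every male pair of libraries lay on one side of 1 and that of every female pair on the other. These differences between the sexes were not tested, and the same held for 20.4% of the 14140 genes of filterByExpr. α7E260A:G over α7G for Mt1 was 0.936 in male controls and 0.717 in male CS libraries, and 2.48 in female controls and 1.39 in female CS libraries. For Mt2 it was 0.972 and 0.895 in male control and CS, and 3.56 and 1.64 in female control and CS. For Mtf1 the order was opposite, with 1.34 and 1.88 in males and 0.784 and 0.893 in females. For Slc30a1 it was 1.06 and 1.11 in males and 0.485 and 0.945 in females. Mtf1 also differed in its response to CS, with CS over control of 0.561 in α7G and 0.790 in α7E260A:G males, and 1.24 in α7G and 1.41 in α7E260A:G females, a split by sex seen for 8.62% of those genes. The slope on CDS length differed between the sexes in the same libraries, with 0.41 in the male and -0.24 in the female α7E260A:G control, and its part in these differences was not tested.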

How the results depend on the processing

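With all libraries in place, the count of transcripts called between genotypes moved from 6 to 476 with the CDS length offset, 422 with DESeq2, 13 with filterByExpr and 69 with no filter, and members called, leaving aside Slc39a2, went from 0 to 1 with the offset. CS over both genotypes went from 0 to 39 transcripts with DESeq2, 1 of them a member, and to 1 with no filter. CS in α7G went from 0 to 26 with DESeq2 and to 1150, 2 of them members, with the 4 libraries of the genotype. CS in α7E260A:G went from 0 to 11 with DESeq2, 1 of them a member, to 1 with filterByExpr and to 3 with no filter. The interaction went from 0 to 3 with DESeq2. Female against male went from 2 to 4 with the offset, 51 with DESeq2 and 4 with no filter. Library size scaling moved the median log2 fold-change of all transcripts to -0.12 for CS in α7G, 0.16 for the interaction and -0.16 for female against male. The causes were not tested.

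Of 751 member values under alternatives, 685 kept their direction and, where tested, their side of the threshold, 0 lost a call, 9 gained one and 57 changed sign. Of those 57, 17 had all libraries. The genotype difference of Slc39a2 was not tested and ran from 1.67 to 1.89. With the offset, signs turned for CS in α7G in Mtf1 (0.024) and Slc39a1 (-0.060), for the interaction in Mt2 (0.27) and Mtf1 (-0.064), and for female against male in Mt2 (-0.16), Slc39a1 (-0.21) and Slc39a2 (-0.14). Female against male also turned with library size scaling in Slc39a1 (-0.14) and Slc39a2 (-0.045), and with no filter in Slc39a1 (-0.0084).

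The replicate numbers mark sex, and same-sex libraries of different groups did not all deviate together (r from -0.07 to 0.84), so they were not taken as pairs. The highest r was between control and CS of α7E260A:G, while control and CS of α7G had an r of 0.20. With the replicate block, 40 transcripts were called between genotypes, and with the block and the offset 673, with 1 member other than Slc39a2 called, Mt2 with 0.71 (edgeR adjusted p = 0.0147). For CS in α7G the block alone gave 1.33 for Mt1 and 1.40 for Mt2 (edgeR adjusted p = 0.321 for both), and 0 transcripts were called. The 183-base CDS of Mt1-201 turned the interaction in Mt1 to 0.27 with the offset and with the block and the offset, and in the latter Mt1 was also called between genotypes, with 0.42 (edgeR adjusted p = 0.0458). The block with the offset also turned Mtf1 for CS over both genotypes (0.022), Mtf1 (0.063) and Slc39a1 (-0.055) for CS in α7G, and Mt2 (0.25) and Mtf1 (-0.082) for the interaction.

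Leaving out 1 library at a time, between genotypes 1 to 275 of the 7190 transcripts and 0 to 1 members other than Slc39a2 were called, and for CS over both genotypes 0 to 1 transcripts. On the 14140 genes of filterByExpr, 1 to 639 were called between genotypes, the most without the female α7E260A:G control. Without the male α7E260A:G control these genes reached their highest counts for CS over both genotypes (0 to 98), for CS in α7E260A:G (0 to 139) and for the interaction (0 to 92). For CS in α7G 0 were called throughout and for female against male 2 to 4. Signs turned for the following. Between genotypes, Mt1 ran from -0.19 to 0.94, Mtf1 from -0.0078 to 0.54 and Slc30a1 from -0.30 to 0.017. For CS over both genotypes, Mtf1 ran from -0.33 to 0.22, Slc39a1 from -0.064 to 0.063 and Slc39a8 from -0.60 to 0.19. For CS in α7G, Mtf1 ran from -0.42 to 0.19 and Slc39a14 from -0.48 to 0.0086. For CS in α7E260A:G, Mt1 ran from -0.63 to 1.68, Mt2 from -0.57 to 1.73, Mtf1 from -0.51 to 0.58, Slc39a8 from -0.75 to 0.81, Slc39a14 from -0.80 to 0.10 and Slc30a1 from -0.45 to 0.17. For the interaction, Mt1 ran from -1.84 to 0.48, Mt2 from -1.93 to 0.39, Mtf1 from -0.35 to 0.72, Slc39a8 from -0.31 to 1.24, Slc39a14 from -0.59 to 0.29 and Slc30a4 from -0.50 to 0.17. For female against male, Slc39a1 ran from -0.091 to 0.062, Slc39a2 from -0.017 to 0.22, Slc39a14 from -0.35 to 0.10 and Slc30a4 from -0.18 to 0.14.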
